A study of Mus musculus with 18 samples.

Results

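TREX and its export receptor were followed through 10 genes, which were chosen by name: the helicase *Ddx39b*, the adaptor *Alyref*, the THO subunits *Thoc1*, *Thoc2*, *Thoc3*, *Thoc5*, *Thoc6* and *Thoc7*, and the receptor genes *Nxf1* and *Nxt1*. The count tables listed 55401 annotated genes, and all 10 were among the 14688 that passed the filter on low counts. The mRNA-seq comprised 6 libraries of total RNA depleted of rRNA from a line of mouse embryonic fibroblasts (NIH/3T3, from ATCC), with 3 libraries of wild type (WT) and 3 of XPO4 knockout (KO) cells. The KO cells were 1 line made with CRISPR-Cas9, in which both copies of the gene carry the same edit, so a difference between genotypes cannot be told apart from a difference between cell lines. Xpo4 encodes an exportin, a carrier that takes cargo out through the nuclear pore. Another 12 libraries, 2 for each genotype from whole cells, cytoplasm and nuclei, were treated with RNase R, which digests linear RNA, and counted as circular RNA (circRNA) junction reads. Nothing in the labels says that replicates came from separate cultures, so p-values measure the spread between libraries, which may be technical.

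TREX (transcription-export) couples the making and splicing of mRNA to its export. The THO complex brings the DEAD-box helicase DDX39B (UAP56) to nascent transcripts, DDX39B loads adaptors such as ALYREF, and these hand the mRNA to the heterodimer of NXF1 and NXT1, which carries it through the pore. DDX39A (URH49), the close paralog of DDX39B, also acts in export, and THO with its helicase is known to limit RNA:DNA hybrids.

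The heading of the count column in each mRNA-seq file named an alignment of the opposite genotype; groups here follow the titles. Were the headings right, every direction of the mRNA comparison below would turn, but not those of the circRNA libraries, which come from other files. *Xpo4* mRNA did not settle this. It stood at 3.72, 2.62 and 3.77 FPKM (reads per kilobase of exon and 1000000 counted reads) in the KO libraries and at 3.08, 2.93 and 2.89 FPKM in WT, a log2 fold change of 0.18 (SE 0.11, edgeR adjusted p = 0.193). KO replicate 2, the low value, stood apart from the other libraries: the chi-square per gene was 10.6 and 12.3 against the other KO replicates, and between 3.05 and 4.98 in all other pairs of one genotype. Without it *Xpo4* was higher in KO by 0.34 on the log2 scale (edgeR adjusted p = 0.00025). Libraries held 16974062 to 22057323 counted reads. The 10 fibroblast markers summed to 3041 to 3127 FPKM in KO and 2912 to 3012 FPKM in WT, with 6 called higher and 4 lower, and those of epithelial, endothelial and muscle cells to at most 0.342 FPKM. *Epcam*, *Krt18* and *Myod1*, of the epithelial and muscle lists, had 0 reads in all 6 libraries. Of the same lists, *Cdh1* had 1 to 7 reads a library, *Krt8* had 2 reads in WT replicate 1 and *Myog* 1 read in WT replicate 3. *Des*, the 1 muscle marker tested, held 12, 23 and 15 reads in KO and 8, 11 and 8 in WT. It was called higher in KO (log2 fold change 1.09, edgeR adjusted p = 0.0363). Immune markers summed to 2.44 to 3.43 FPKM in KO and 4.04 to 5.90 FPKM in WT, and proliferation genes to 254 to 264 FPKM in KO and 284 to 288 FPKM in WT. Of the 7 proliferation genes, 5 were called lower and 1, *Cdk1*, was called higher (log2 fold change 0.57, edgeR adjusted p = 2.36e-06). The part of these markers in the results was not tested.

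*Ddx39b* fell most among the 10 genes, *Thoc1* and *Thoc2* fell by less, *Nxt1* rose, and the other 6 did not pass the test. The quasi-likelihood test of edgeR, with p-values adjusted over all genes by Benjamini and Hochberg, called 4 of the 10, or 40%, at an adjusted p below 0.05, where it called 48.7% of all genes tested. Of the 10, 1 was called higher in KO, where 25.1% of all genes were, and 3 were called lower, where 23.6% were. The share called was thus near that of all genes. Only 2 of the 10, *Ddx39b* and *Thoc1*, were called without KO replicate 1, WT replicate 1 or WT replicate 2, and with limma on FPKM. The median log2 fold change of the 10 was -0.07 beside -0.0029 over all genes tested, and the median size of change was 0.13 beside 0.28. The FPKM of the 3 KO and the 3 WT libraries did not overlap for 4 of the 10 genes (*Ddx39b*, *Thoc1*, *Thoc5* and *Nxf1*), against 57.8% of all genes.

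**Figure D1:**
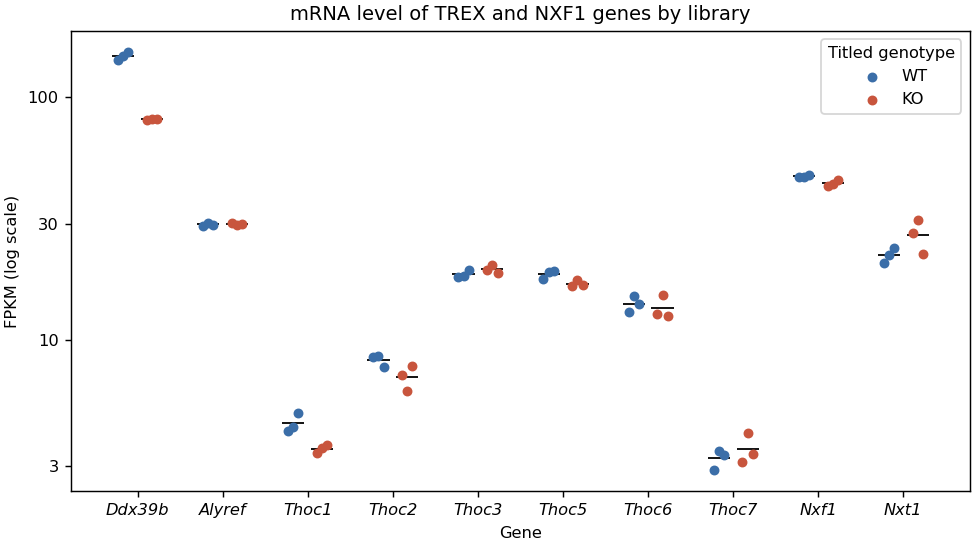
FPKM of each gene (log axis) in the 3 WT and 3 KO libraries, with points for libraries and a bar for the group mean. The *Ddx39b* points lie between 80.6 and 81.4 in KO and between 143 and 153 in WT, while the *Alyref* points of both genotypes lie at 29.5 to 30.3.

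*Ddx39b* encodes the helicase of TREX and lies at chr17:35241746-35253707 (GRCm38, plus strand). It stood at 80.6, 81.3 and 81.4 FPKM in the KO libraries and at 143, 148 and 153 FPKM in WT. The KO values lay within 1 FPKM of each other and far below the lowest WT value. In bulk RNA, fewer cells with the transcript and less of it per cell cannot be told apart. The level in KO was 54.8% of WT, a log2 fold change of -0.87 (SE 0.052, 95% interval -0.98 to -0.76, edgeR adjusted p = 2.04e-08). A change of this size or larger, in either direction, was seen for 12.8% of the genes tested, and 7.22% were as low in KO or lower. Of the 84 genes tested within 1 Mb of *Ddx39b*, 22 were called lower and 17 higher, with a median log2 fold change of 0.07. Of all genes tested, 23.6% were called lower and 25.1% higher. Other genes share 4.41% of the exon bases of *Ddx39b*.

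The start of *Ddx39b* is shown because it is the member that changed most, beside that of *Nxt1*, the one called higher. Each is the 250 bases before the RefSeq start, read 5′ to 3′ on the gene's strand from GRCm38.p6, at chr17:35241496-35241745 and chr2:148672365-148672614, with motif matches in capitals.
Ddx39b: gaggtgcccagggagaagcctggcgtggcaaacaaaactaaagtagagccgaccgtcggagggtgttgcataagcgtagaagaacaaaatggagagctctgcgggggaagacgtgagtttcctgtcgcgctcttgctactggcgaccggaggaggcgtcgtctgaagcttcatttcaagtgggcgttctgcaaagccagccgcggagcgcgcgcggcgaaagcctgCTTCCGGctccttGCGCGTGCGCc
Nxt1: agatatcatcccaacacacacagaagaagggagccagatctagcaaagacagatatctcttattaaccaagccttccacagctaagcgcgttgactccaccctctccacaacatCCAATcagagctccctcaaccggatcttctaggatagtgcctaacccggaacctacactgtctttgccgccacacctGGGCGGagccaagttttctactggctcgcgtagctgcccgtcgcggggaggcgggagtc

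Both strands were searched for CCAAT, the GC box GGGCGG, the E-box CACGTG, the TATA motif TATAAA, the ETS core CCGGAAG and the NRF1 motif. The *Ddx39b* stretch held 1 ETS core, beginning 24 bases before the start, and 1 NRF1 motif 11 bases before it. Of 32851 RefSeq promoters of the same length, 6.91% held the ETS core and 3.74% the NRF1 motif. The ETS core is not particular to *Ddx39b* among the members. The stretch of *Alyref* held 2 and that of *Thoc5* held 1, and neither gene passed the test. The *Nxt1* stretch held 1 CCAAT, in 33.8% of promoters, and 1 GC box, in 32.7%. A match is a description of the letters and not a measured site. RefSeq gave such a stretch for 8 of the 10 genes, and the GC content was 60.8% for *Ddx39b* and 54.4% for *Nxt1*, beside a median of 52.4% over all promoters.

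*Ddx39a*, the paralog helicase, also fell. It stood at 27.1, 27.8 and 26.6 FPKM in KO and at 37.1, 38.1 and 37.8 FPKM in WT, with no overlap. Its level in KO was 72.1% of WT (log2 fold change -0.47, SE 0.053, edgeR adjusted p = 7.87e-06). No stretch of 75 bases was shared between the transcripts of *Ddx39a* and *Ddx39b*, whereas 17.4% of the *Ddx39a* exon bases overlap *Adgre5*. Together the helicases reached 108 ± 0.731 FPKM in KO and 186 ± 5.51 FPKM in WT (SD, n = 3).

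A ratio within a library does not depend on the scaling between libraries. The ratio of *Ddx39a* to *Ddx39b* FPKM was 0.337, 0.342 and 0.327 in KO and 0.260, 0.257 and 0.247 in WT. Every KO ratio was above every WT ratio. The ratio was 1.32-fold higher in KO (difference of 0.40 on the log2 scale), with p = 0.1 by exact permutation of libraries (two-sided), the lowest that 3 against 3 can give. *Ddx39a* made up 25.1% ± 0.429 of the summed helicase FPKM in KO and 20.3% ± 0.445 in WT (SD, n = 3).

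**Figure D2:**
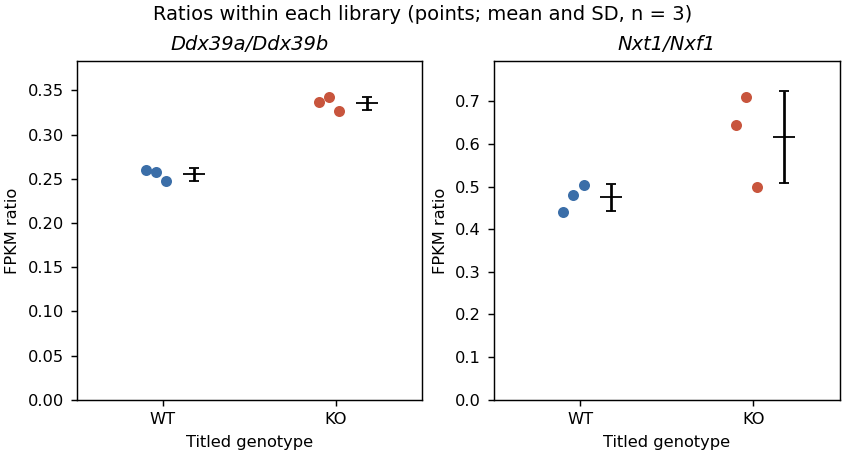
FPKM ratio of *Ddx39a* to *Ddx39b* (left) and of *Nxt1* to *Nxf1* (right) in each WT and KO library, with the mean and SD of 3 libraries beside the points; axes start at 0. The helicase ratios lie between 0.327 and 0.342 in KO and between 0.247 and 0.260 in WT, while 1 KO ratio on the right, 0.498, lies among the WT values.

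*Alyref* (chr11:120592121-120598365, minus strand), the adaptor that DDX39B loads onto mRNA, did not pass the test. The FPKM was 30.1, 29.6 and 29.8 in KO and 29.5, 30.3 and 29.8 in WT, so that the groups overlapped throughout. The log2 fold change was -0.0015 with a 95% interval of -0.11 to 0.11 (edgeR adjusted p = 0.983), and its sign turned under 7 of 13 alternatives. Its mean level was at percentile 87.6 of the genes tested.

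Within THO, 2 of 6 subunits fell and none rose, so 33.3% were called beside 48.7% of all genes. *Thoc1*, which encodes the subunit homologous to yeast Hpr1, stood at 3.40, 3.58 and 3.68 FPKM in KO and at 4.21, 4.36 and 5.0 FPKM in WT. The groups did not overlap, with WT replicate 3 the highest library. The log2 fold change was -0.35 (SE 0.079, edgeR adjusted p = 0.00252), 78.4% of WT. The gene shares 24.3% of its exon bases with *Usp14*, and the counting was run without a strand setting, so reads there could not be assigned to one gene.

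*Thoc2*, the large scaffold subunit on chromosome X (chrX:41794991-41920674, minus strand), stood at 7.15, 6.11 and 7.80 FPKM in KO and at 8.46, 8.55 and 7.71 FPKM in WT. KO replicate 3 was above WT replicate 3, so the groups overlapped. The log2 fold change was -0.23 (SE 0.078, edgeR adjusted p = 0.0250). The call was lost without KO replicate 1 (edgeR adjusted p = 0.0611), WT replicate 1 (0.0769) or WT replicate 2 (0.102) and with limma on FPKM (0.0836), and over all 13 alternatives the adjusted p lay between 0.0033 and 0.102.

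The other 4 THO subunits did not pass. *Thoc5* had log2 fold change -0.13 (edgeR adjusted p = 0.101), with KO at 16.6, 17.6 and 16.8 FPKM against 17.8, 18.9 and 19.2 FPKM in WT. Its groups did not overlap, and without KO replicate 2 it passed, at -0.16 (edgeR adjusted p = 0.0455). *Thoc3* stood at 0.07 (adjusted p = 0.421), *Thoc6* at -0.05 (0.668) and *Thoc7* at 0.13 (0.368) in the same edgeR fit, each with overlapping groups. Over the 6 libraries *Thoc3* ranged from 18.1 to 20.3 FPKM, *Thoc6* from 12.6 to 15.3 FPKM and *Thoc7* from 2.90 to 4.13 FPKM, with KO replicate 2 the highest library for all 3. The 95% interval of *Thoc7* ran from -0.11 to 0.36 and that of *Thoc6* from -0.25 to 0.15. *Thoc6* shares 14.6% and *Thoc7* 19.2% of its exon bases with other genes.

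The summed FPKM of the 6 THO genes was between 62.4 and 67.0 in KO and between 64.3 and 68.7 in WT. Within that sum, *Thoc1* made up 5.54% ± 0.256 in KO and 6.72% ± 0.494 in WT (SD, n = 3), and *Thoc3* 30.4% ± 0.54 in KO and 27.6% ± 0.854 in WT. The *Thoc1*, *Thoc3* and *Thoc5* shares did not overlap between genotypes. Those of *Thoc2*, at 11.0% ± 1.67 in KO and 12.3% ± 0.971 in WT, and of *Thoc6* and *Thoc7* overlapped. Shares of one sum are not independent, and the FPKM of 57.8% of all genes did not overlap either.

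**Figure D3:**
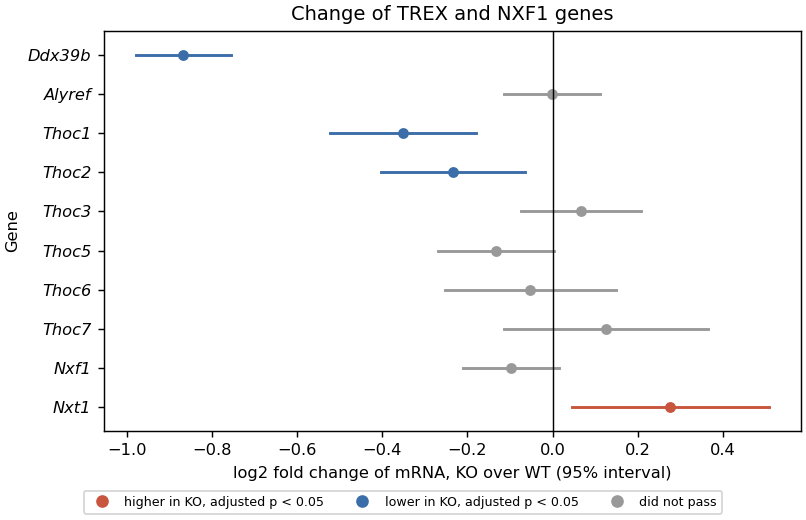
Log2 fold change of mRNA in KO over WT for the 10 genes, with 95% intervals from edgeR (6 libraries); colour gives the adjusted p below 0.05 and the direction. *Ddx39b* sits at -0.87, *Thoc1* at -0.35, *Thoc2* at -0.23 and *Nxt1* at 0.28, and the intervals of the other 6 hold 0.

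*Nxf1* (chr19:8757073-8770922, plus strand) encodes the large subunit of the export receptor. It stood at 42.8, 43.8 and 45.4 FPKM in KO and at 46.9, 46.6 and 47.5 FPKM in WT. The KO values lay just below the WT values without overlap, by a log2 fold change of -0.10 that did not pass (95% interval -0.21 to 0.014, edgeR adjusted p = 0.136).

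*Nxt1* (chr2:148672601-148676027, plus strand), the small partner of NXF1, was the one member called higher in KO. It stood at 27.6, 31.0 and 22.6 FPKM in KO and at 20.7, 22.4 and 23.9 FPKM in WT. KO replicate 3 lay among the WT values, so the rise rested on KO replicates 1 and 2. The log2 fold change was 0.28 (SE 0.11, edgeR adjusted p = 0.0468). The call was lost with DESeq2 (adjusted p = 0.0677), with upper-quartile scaling in edgeR (0.0708), with limma on FPKM (0.0850) and without KO replicate 1 (0.102), KO replicate 2 (0.134), WT replicate 1 (0.158) or WT replicate 2 (0.110), though it was positive in every one. Of 5 genes tested within 1 Mb of *Nxt1*, 4 were called higher, where 25.1% of all genes were, with a median log2 fold change of 1.03. A window of 5 genes is small, and a change of the region was not tested. Near *Thoc1*, which fell, 4 of 9 genes were called higher and 0 lower.

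The ratio of *Nxt1* to *Nxf1* FPKM was 0.644, 0.709 and 0.498 in KO and 0.441, 0.480 and 0.503 in WT. KO replicate 3 overlapped the WT libraries. The ratio was 1.29-fold higher in KO (difference of 0.36 on the log2 scale), with p = 0.2 by the same exact permutation.

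Per length and over the 6 libraries, *Ddx39b* was the most abundant of the 10 at 114 FPKM, followed by *Nxf1* at 45.5, *Alyref* at 29.9, *Nxt1* at 24.7, *Thoc3* at 19.0, *Thoc5* at 17.8, *Thoc6* at 13.8, *Thoc2* at 7.63, *Thoc1* at 4.04 and *Thoc7* at 3.40. Neighbours whose ranges overlapped were *Alyref* and *Nxt1*, *Thoc3* and *Thoc5*, and *Thoc1* and *Thoc7*. Within one genotype, *Alyref* overlapped *Nxt1* and *Thoc1* overlapped *Thoc7* in KO but not in WT, whereas *Thoc3* and *Thoc5* overlapped in WT, at means of 18.58 and 18.61 FPKM, but not in KO. Of the genes tested, *Ddx39b* was at percentile 97.4 and *Thoc7* at percentile 37.3. The levels of *Thoc1*, *Thoc6* and *Thoc7* can read low, since reads on exon bases shared with other genes were dropped but the bases were kept in the length.

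The rest of the export pathway was taken from a list of 43 genes in 6 roles, of which 41 were tested. edgeR called 19 of them, 8 higher and 11 lower, or 46.3% beside 48.7% of all genes. Of 12 adaptors and TREX-associated factors, 6 were lower and 1 higher, or 58.3% called. *Zc3h3*, a zinc finger protein of poly(A) mRNA export, was at 3.68, 4.10 and 4.08 FPKM in KO and 7.02, 6.14 and 6.63 FPKM in WT (log2 fold change -0.74, edgeR adjusted p = 1.95e-05). *Sarnp* (CIP29), a TREX protein that binds DDX39B, was higher by 0.56 (edgeR adjusted p = 0.00142), while *Poldip3*, a TREX-associated adaptor, was lower by a log2 fold change of -0.30 (edgeR adjusted p = 0.00061).

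*Nxt2*, the paralog of *Nxt1*, was at 6.11, 7.13 and 6.16 FPKM in KO and 3.39, 3.97 and 3.34 FPKM in WT, 1.82-fold higher (log2 fold change 0.86, edgeR adjusted p = 2.02e-05). TREX-2 had 1 of 6 genes called, higher, and the cap-binding and exon junction complexes 3 of 9, all higher, or 16.7% and 33.3% beside the 25.1% of all genes called higher. These included *Rbm8a* (Y14) at 0.33 (edgeR adjusted p = 0.00090) and *Magohb* at 0.27 (0.0435). The *Magohb* call was lost with DESeq2, with upper-quartile scaling and without KO replicate 2 or any one WT library, with an adjusted p of at most 0.173. On the pore side, 4 of 9 genes were lower and 1 higher, so 55.6% were called beside 48.7% of all genes. *Tpr* and *Nup153*, which build the nuclear basket, had log2 fold changes of -0.49 and -0.35 (edgeR adjusted p = 4.03e-05 and 0.00295). *Ddx19b*, a helicase at the outer face of the pore, stood at -0.48 (0.00219), and *Nup214*, its docking site, at -0.30 (0.0219) with overlapping groups. *Ddx19a*, the 1 pore-side gene called higher, stood at 0.22 (edgeR adjusted p = 0.0119). Its mean was 21.2 FPKM in KO and 18.2 FPKM in WT, against 1.49 and 2.08 FPKM for *Ddx19b*. The *Nup214* call was lost with limma and without KO replicate 1, WT replicate 1 or WT replicate 3, with an adjusted p of at most 0.0778. On the CRM1 route, 2 of 3 genes were called, 1 higher and 1 lower, or 66.7% beside 48.7% of all genes. *Eif4e* was higher by 0.57 (edgeR adjusted p = 6.99e-06) and *Lrpprc* was at -0.15 (0.0410). *Xpo1*, which encodes CRM1, did not pass, at -0.02 (0.721).

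**Figure D4:**
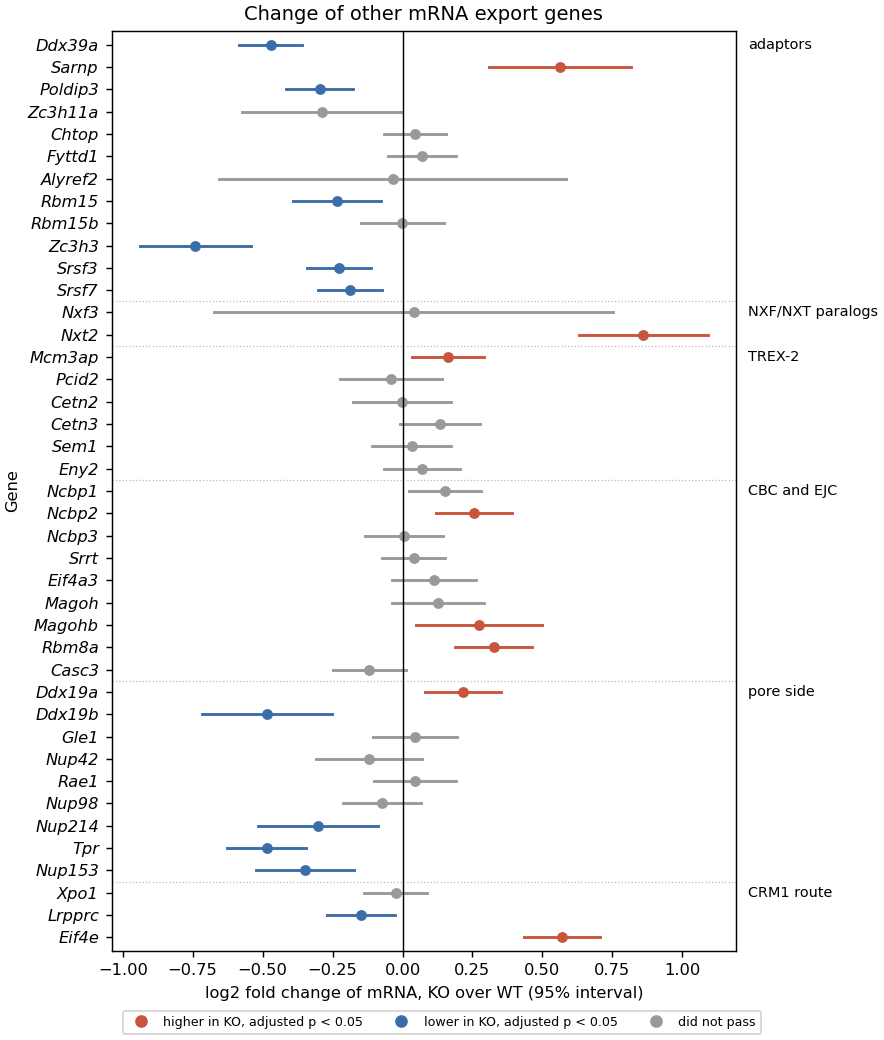
Log2 fold change of mRNA in KO over WT for 41 other genes of mRNA export, by role, with 95% intervals from edgeR; CBC and EJC are the cap-binding and exon junction complexes. The adaptors carry 6 lower and 1 higher call, the pore side 4 lower and 1 higher, and *Nxt2* at 0.86 is farthest to the right.

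Circles of 4 of the 10 genes were listed, in 10 positions whose ends all lay on annotated exon edges: *Ddx39b*, *Thoc1*, *Thoc2* and *Nxf1*. No circle was listed for *Alyref*, *Thoc3*, *Thoc5*, *Thoc6*, *Thoc7* or *Nxt1*. Counts were low, at 158 junction reads in all libraries together, and PCR reads without molecular identifiers are not independent molecules, so intervals cover counting error only. With 2 libraries a group no exact test can go below 0.333, and none is given.

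The backsplice junctions of the 3 *Ddx39b* circles (chr17, plus strand) are shown because this gene gave most of the whole-cell circle reads of WT. Each line holds 15 bases before the junction in lower case and 15 after it in capitals, from the GRCm38 genome, and exons are numbered on one GENCODE transcript of the gene.
Ddx39b exons 2 to 3: cccgttactgggcagCTCTTCTGTCGGAAA
Ddx39b exons 2 to 6: aagttcatgcaagatCTCTTCTGTCGGAAA
Ddx39b exon 2, inner start, to exon 6: aagttcatgcaagatAGAACGATGTGGACA

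The first 2 circles begin at the same exon start, 35243113, and the last 2 end at the same exon end, 35249069, so each pair shares one side of its junction. Their spliced lengths are 466, 862 and 728 nt. The last of them, which begins at 35243247, held 39 reads over all libraries, against 15 and 12 for the others, and was the one seen in the cytoplasm.

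In whole cells *Ddx39b* circles held 6 and 8 junction reads in KO and 16 and 17 in WT, or 103 and 159 against 277 and 308 RPM (reads scaled to 1000000 junction reads of the library). The KO libraries lay below both WT libraries. The ratio of KO to WT was 0.441 (95% counting interval 0.218 to 0.848), beside 54.8% for its mRNA in other libraries. In the cytoplasm it held 4 and 7 reads in KO and 4 and 4 in WT, an RPM ratio of 1.93 with an interval of 0.706 to 5.52. There both KO libraries (79.0 and 111 RPM) lay above both WT libraries (51.4 and 48.8 RPM), the opposite order to whole cells, but the interval holds 1 and a difference was not detectable at this depth.

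*Thoc1* circles were counted in both fractions. In the cytoplasm they held 3 and 2 junction reads in KO and 15 and 15 in WT, an RPM ratio of 0.234 (95% counting interval 0.0708 to 0.608). In whole cells they held 7 and 7 reads in KO and 8 and 7 in WT, a ratio of 0.971 (0.434 to 2.16), and the intervals of the fractions overlap. Most of the cytoplasmic WT reads belonged to 1 circle, chr18:9968751-9977978, with 12 and 10 in WT and 2 and 0 in KO, while in whole cells that circle had 3 and 4 reads in KO and 0 and 1 in WT.

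*Thoc2* gave 2 circles, in whole cells only, with opposite counts. The circle chrX:41844027-41864195 had 8 and 2 reads in KO and 0 and 1 in WT, and chrX:41858064-41897850 had 0 and 1 in KO and 5 and 4 in WT. Summed, *Thoc2* held 8 and 3 reads in KO and 5 and 5 in WT. *Nxf1* had 1 circle, of 1 and 1 reads in KO and 3 and 2 in WT.

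**Figure D5:**
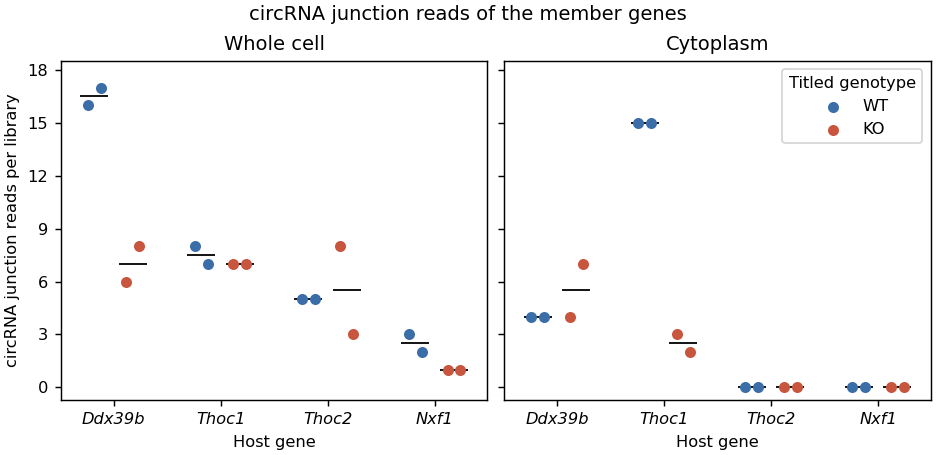
circRNA junction reads of each host gene in the 2 WT and 2 KO libraries of whole cells (left) and cytoplasm (right), with a bar for the mean. *Ddx39b* lies at 6 and 8 in KO against 16 and 17 in WT in whole cells, and *Thoc1* at 3 and 2 against 15 and 15 in cytoplasm.

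In nuclei the members held 0 junction reads in each of the 4 libraries. These held 2189 to 4383 junction reads each, against 50341 to 81941 in the other fractions, so that a count of 0 in a single library allows 684 to 1370 RPM. That limit is above the sum of all members in any whole-cell library, 377 to 563 RPM, so no single nuclear library could detect such a level. The 4 libraries together allow less, and whether nuclear circles of these genes were scarcer than whole-cell ones was not tested.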

How the data were processed

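Groups were taken from the sample titles. Per the file headers, the authors counted mRNA-seq reads per gene with featureCounts (version 2.0.0) on exons of paired-end alignments to GRCm38 without a strand setting, and the submitters' processing notes name HISAT2, so the deposited values are raw counts. Reads on several genes are dropped by default. For circRNA, the deposited count of junction reads per position came from find_circ, and rows naming several positions were left out. FPKM were computed here from counts and whole exon lengths, including bases shared with other genes. Levels and shares compared between genes can therefore read low for *Thoc1*, *Thoc6*, *Thoc7* and *Ddx39a*. The gene test was edgeR's quasi-likelihood fit (edgeR 4.0.16 in R 4.3.3, TMM scaling, filterByExpr, no block), with Benjamini-Hochberg adjusted p called below 0.05. Ratios were tested by exact permutation. Only the edgeR fit was tried on simulated counts, which were drawn with the same dispersion for all genes. DESeq2 (version 1.42.0), limma (version 3.58.1), other scalings, no filter, leaving out each library and a replicate block were alternatives. The members and lists were chosen with earlier results of these data known. All 10 members, *Xpo4*, *Ddx39a*, circles of at least 10 reads and up to 12 called genes of the list by size of change were to be named. The *Nxf1* circle of 7 reads, *Ddx19a*, *Lrpprc*, *Xpo1* and single marker genes were added after their values were seen. The labels' extraction text speaks of blood, although the samples are cell lines.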

Additional observations from a re-analysis of the deposited data

How the results depend on the processing

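Over 13 alternatives, *Ddx39b* and *Thoc1* passed in all, with log2 fold changes of -0.90 to -0.84 and -0.40 to -0.27. The number of members called was 2, none higher, with limma on log2(FPKM + 0.1), and 2 to 4 with 1 library left out. The call was 2 without KO replicate 1, WT replicate 1 or WT replicate 2. Of the other export genes 14 to 21 were called, and of all genes 6143 to 7696. Members with values near 0 changed sign. With 1 library left out, *Alyref* lay between -0.014 and 0.0092, *Thoc6* between -0.15 and 0.0092 and *Thoc7* between -0.00046 and 0.22. *Alyref* turned to 0.0067 with DESeq2, 0.00051 without the filter and 0.00026 with limma, and rose above 0 without any one of the KO libraries or WT replicate 2. *Thoc7* turned without KO replicate 2, and *Thoc6* without KO replicate 3 or WT replicate 2. The log2 ratio of circle reads, KO over WT, was -0.62 in whole cells (-0.73 to -0.52 with 1 library left out) and -1.25 in cytoplasm (-1.44 to -1.08), which moved to -0.76 as RPM. RPM divides by the junction reads, and these differed in cytoplasm, at 50629 and 63335 in KO against 77818 and 81941 in WT. The shift to RPM is that depth difference. The cause of the other moves was not tested.

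Deviations of same-numbered mRNA libraries from their group means had correlations of 0.062, 0.036 and -0.089. The labels do not say whether such libraries were prepared together, and these correlations cannot decide it. With the replicate block 7124 genes, 4 members and 20 other export genes were called. The members' median log2 fold change was then -0.08, and *Ddx39b* stood at -0.87. Paired sign-flip tests of the ratios gave exact p = 0.25 for *Ddx39a* to *Ddx39b* and exact p = 0.5 for *Nxt1* to *Nxf1*. Directions rest on the sample titles, and few junction reads limit the circle values.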
